A study of Mus musculus with 13 samples.

Results

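The let-7 members described here are the 9 hairpins mmu-let-7a-1, mmu-let-7b, mmu-let-7c-2, mmu-let-7d, mmu-let-7f-1, mmu-let-7f-2, mmu-let-7g, mmu-let-7i and mmu-mir-98 (written below without the species prefix), of 1127 hairpins in the precursor counts. They are the let-7 hairpins that do not lie next to a member of the mir-99/100 and mir-125 families, together with mir-98, which carries the same seed. In the mature counts the members are 19 of 1297 sequences, namely all let-7 entries except those of let-7e, and miR-98. Among them, let-7j (chr3) and let-7k (chr5) have loci of their own and come from none of the 9 hairpins. The small RNAs were sequenced from thymic iNKT cells, T cells with an invariant TCR that recognizes lipids, sorted as live TCRβ+ tetramer+ cells after depletion of CD24+ cells. Control (WT) mice were C57BL/6, with 6 libraries. *Tet2/3* DKO mice (Tet2-/- Tet3 flx/flx CD4 cre) gave 7 libraries, *Tet2* being deleted in the whole animal and *Tet3* by a Cre that the *Cd4* regulatory elements drive in T lineage cells. Mice of both sexes, 21 to 25 days old, were used in each genotype, with 1 library per mouse, and no gene was deleted in the controls. The study compared the genotypes to learn which precursor and mature miRNAs depend on TET2 and TET3 in these cells.

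Let-7 miRNAs are short RNAs that lower the expression of mRNAs carrying matching sites, many of them in genes of growth and proliferation, and they are abundant in resting and differentiated lymphocytes. In iNKT cells, let-7 is known for its targeting of *Zbtb16*, which encodes the transcription factor PLZF. DROSHA cuts the primary transcript into a hairpin and DICER cuts the hairpin into a duplex. One strand, the guide, is kept in an Argonaute protein, and the other, the minor arm, is mostly degraded.

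All 19 mature sequences were found in the RefSeq miRNA records of GRCm38.p6. Those with a WT mean of 1000 CPM or more are printed 5′ to 3′. The seed, bases 2 to 8, is in capitals, since the members differ mainly outside it. Of the 10 sequences from the 5′ arm or with no arm in their name, 9 shared the seed GAGGUAG, and let-7j was the exception.
let-7a-5p: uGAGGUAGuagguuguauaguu
let-7b-5p: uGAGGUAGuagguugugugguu
let-7c-5p: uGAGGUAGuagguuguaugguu
let-7d-5p: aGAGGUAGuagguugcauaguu
let-7f-5p: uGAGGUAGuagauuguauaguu
let-7g-5p: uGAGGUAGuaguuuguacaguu
let-7i-5p: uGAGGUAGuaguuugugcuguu
miR-98-5p: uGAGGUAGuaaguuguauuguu
let-7j: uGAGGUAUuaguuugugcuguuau
let-7d-3p: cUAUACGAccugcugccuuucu
Counted from 1 at the 5′ end and starting from let-7a-5p, let-7c-5p has the single change A19G and let-7b-5p has A17G and A19G. The single change of let-7f-5p is G12A. The other members have U1A and U16C (let-7d-5p), G12U and U18C (let-7g-5p), G12U, A17G, U18C and A19U (let-7i-5p), and G11A and A19U (miR-98-5p). let-7j differs from let-7i-5p by G8U over their shared length. Among the 9 minor arms, 5 shared the seed UAUACAA, and let-7a-1-3p and let-7c-2-3p have 1 sequence, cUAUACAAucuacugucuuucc, and had the same counts in every library.

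The 4 hairpins on which the results turn are printed with both mature arms in capitals, the guide first, so that each arm can be placed in its precursor.
let-7b: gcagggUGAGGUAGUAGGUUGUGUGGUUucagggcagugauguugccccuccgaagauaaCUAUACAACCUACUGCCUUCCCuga
let-7c-2: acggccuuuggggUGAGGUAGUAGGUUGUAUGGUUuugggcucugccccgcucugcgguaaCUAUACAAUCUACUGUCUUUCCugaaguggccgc
let-7d: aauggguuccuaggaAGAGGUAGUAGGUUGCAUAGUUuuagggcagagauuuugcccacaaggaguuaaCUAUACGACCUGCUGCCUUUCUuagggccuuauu
let-7g: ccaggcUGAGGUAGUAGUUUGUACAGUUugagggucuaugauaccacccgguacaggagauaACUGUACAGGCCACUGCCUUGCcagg
The 9 hairpins lie at 5 places in GRCm38.p6, and the GENCODE M21 annotation gives their hosts, all on the strand of the hairpin. let-7c-2 (chr15:85706603-85706697, plus strand) and let-7b (chr15:85707319-85707403, plus strand) are in exons of the noncoding transcript *Lncppara*. let-7a-1 (chr13:48538179-48538272), let-7f-1 (chr13:48537829-48537917) and let-7d (chr13:48536012-48536114) follow each other on the minus strand in exons of a lincRNA. let-7f-2 (chrX:151912346-151912428, plus strand) and mir-98 (chrX:151913214-151913321, plus strand) are in an intron of *Huwe1*, which encodes a ubiquitin ligase. let-7g (chr9:106178840-106178927, plus strand) is in an intron of *Wdr82*, and let-7i (chr10:122985640-122985724, minus strand) is in an exon of a transcribed processed pseudogene.

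Precursor totals per mouse ran from 469117 to 1110226 counts in WT and from 728653 to 1910526 in *Tet2/3* DKO, and mature totals from 1110852 to 2582057 and from 1837631 to 4361963. The quasi-likelihood test of edgeR compared the genotypes on TMM-scaled counts, with Benjamini-Hochberg adjustment over each table and a threshold of 0.05. Among precursors, 95 hairpins were lower and 114 higher in *Tet2/3* DKO, but 56 and 153 with library size as the only scaling, which shifted the median log2 difference of all hairpins by 0.34, and 137 and 93 with upper-quartile scaling, which shifted it by -0.24. In the mature table the split was 110 lower and 113 higher, 77 and 142 with library size only (shift 0.25), and 132 and 89 with upper-quartile scaling (shift -0.16). Hairpins that mark T cells summed to 187478 to 221273 CPM in WT and 176341 to 246432 in *Tet2/3* DKO over 7 markers, of which 2 were lower and 4 higher past the threshold. Markers of red cells (802 to 2239 CPM in WT and 174 to 656 in *Tet2/3* DKO over 4 hairpins), stroma (49.3 to 138 and 8.89 to 30.7 over 5) and myeloid cells (mir-223, 20.1 to 309.9 and 0 to 19.2) were lower in *Tet2/3* DKO for each of the 3, 3 and 1 markers tested. mir-122 of hepatocytes was at 4.25 to 22.8 and 0 to 2.98 CPM and was not tested, and of the epithelial and endothelial markers (170 to 290 and 175 to 237 CPM over 6, and 101 to 234 and 95.5 to 145 CPM for mir-126a) none of the 4 and 1 tested passed the threshold. No marker was at 0 in every library, the part of other cells in the let-7 values was not tested, and in sorted pools fewer cells of a type and less RNA per cell cannot be told apart.

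Among the member hairpins, let-7b, let-7c-2, let-7g, let-7f-1 and let-7f-2 fell in *Tet2/3* DKO iNKT cells and mir-98 rose, although let-7f-1 and let-7f-2 were at 0.051 and 0.057 on the log2 scale with library size only. All 9 were tested, of which 5 were lower, 1 higher and 3 not past the threshold, so that 66.7% were called in either direction. Among all 350 tested hairpins 59.7% were called in either direction, with 27.1% lower and 32.6% higher. The let-7b hairpin ran from 16834 to 29750 CPM in WT (median 18904) and from 2747 to 3976 in *Tet2/3* DKO (median 3201). For let-7c-2 the range was 10005 to 19862 CPM (median 11616) in WT and 1720 to 2666 (median 1919) in *Tet2/3* DKO. For let-7g it was 28664 to 44367 (median 34387) and 16384 to 21822 (median 18321). Every *Tet2/3* DKO mouse was thus below every WT mouse for these 3 hairpins, as for 14% of all tested hairpins, and for another 18% the order was the opposite (32% in all). The log2 differences were -2.68 for let-7b (SE 0.137, edgeR adjusted p = 2.74e-11), -2.63 for let-7c-2 (SE 0.161, edgeR adjusted p = 2.06e-10) and -0.91 for let-7g (SE 0.106, edgeR adjusted p = 9.87e-07).

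The other hairpins differed less. let-7f-1 went from a mean of 8768 CPM ± 954 (SD, n = 6) to 7172 ± 945 (SD, n = 7) and let-7f-2 from 11232 ± 1378 to 9220 ± 1406, with overlapping genotypes and log2 differences of -0.29 (SE 0.104, edgeR adjusted p = 0.0232) and -0.28 (SE 0.112, edgeR adjusted p = 0.0370). let-7f-1 passed the threshold in 10 of the 13 fits that each left out a mouse, but not without WT replicate 4, 5 or 6 (-0.25, -0.23 and -0.24), and let-7f-2 passed in 6, all with WT replicates 2 to 6 and *Tet2/3* DKO replicates 2 and 7 kept. mir-98 ran from 419 to 632 CPM in WT (median 489.8) and from 587 to 758 in *Tet2/3* DKO (median 745), and rose by 0.47 (SE 0.118, edgeR adjusted p = 0.00206), with overlap and, under upper-quartile scaling, 0.23 and no call. The values of let-7a-1 (-0.15), let-7d (-0.17) and let-7i (-0.19) did not pass the threshold, with edgeR adjusted p of 0.302, 0.112 and 0.302. let-7d was, however, lower past the threshold with RLE scaling (-0.28, edgeR adjusted p = 0.0196), with upper-quartile scaling (-0.42, edgeR adjusted p = 0.00159), among hairpins with at least 10 counts in every library (-0.19, edgeR adjusted p = 0.0395) and by DESeq2 (-0.24, adjusted p = 0.0383), and at 0.16 with library size only (edgeR adjusted p = 0.0666). Upper-quartile scaling also called let-7a-1 (-0.39) and let-7i (-0.43) lower, and with library size only both were above 0 without a call. The median log2 difference of the 9 members was -0.28, and that of all tested hairpins 0.02. WT replicate 5 had the highest level of 8 of the 9 hairpins in its genotype and WT replicate 1 the lowest of 8.

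In the mature table the guide strands let-7g-5p, let-7b-5p and let-7c-5p and the minor arms let-7d-3p and let-7b-3p fell, and let-7i-5p and miR-98-5p rose. Of the 19 members 15 were tested, of which 5 were lower, 2 higher and 8 not past the threshold (46.7% called), against 27.4% lower, 28.2% higher and 55.6% called among all 401 tested sequences. let-7c-5p, which is also cut from let-7c-1 at the mir-99a locus, was at 13027 to 24928 CPM in WT (median 15923) and 2171 to 4025 in *Tet2/3* DKO (median 3067), and let-7b-5p at 3534 to 6342 (median 4341) and 629 to 951 (median 747). let-7c-5p was 5.38 times lower and let-7b-5p 5.85 times, beside 6.19 times for the let-7c-2 hairpin and 6.40 times for let-7b. let-7g-5p, the most abundant member in WT, ran from 65884 to 96798 CPM in WT (median 78781) and from 37829 to 53595 in *Tet2/3* DKO (median 51714), a difference of 1.65 times (edgeR adjusted p = 1.65e-05). Genotypes did not overlap for the 5 lower members, as for 14.5% of all tested sequences, and overlapped for both higher ones, while 12.7% of all sequences were higher without overlap (27.2% in either direction).

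let-7i-5p rose from 11758 to 18188 CPM in WT (median 14268) to 16010 to 22674 in *Tet2/3* DKO (median 19193), a log2 difference of 0.39 (SE 0.117, edgeR adjusted p = 0.00698). miR-98-5p rose from 2354 to 3046 CPM (median 2720) to 2555 to 4535 (median 3821), a log2 difference of 0.44 (SE 0.120, edgeR adjusted p = 0.00344). The call on let-7i-5p was lost without WT replicate 1 (0.26, edgeR adjusted p = 0.0613) and with upper-quartile scaling (0.22). Each of the 13 fits without a mouse gave smaller rises than the fit with all mice. The range was 0.264 to 0.388 for let-7i-5p (0.393 with all) and 0.336 to 0.437 for miR-98-5p (0.445 with all). In the same fits let-7g-5p (-0.844 to -0.731, -0.723 with all) and let-7d-5p (-0.228 to -0.129, -0.126 with all) were lower than with all mice. The cause was not tested. let-7f-5p (-0.27), let-7a-5p (-0.30), let-7d-5p (-0.13) and let-7j (0.24) did not pass, with overlapping genotypes, although let-7a-5p and let-7f-5p passed in 9 and 10 of the 13 fits without a mouse (at -0.43 to -0.30 and -0.39 to -0.28). With upper-quartile scaling let-7f-5p, let-7a-5p and let-7d-5p were called lower (-0.45, -0.48 and -0.30), and let-7j was called higher with library size only (0.47, edgeR adjusted p = 0.00221) and with no filter on low counts (0.33, edgeR adjusted p = 0.0283). let-7d-5p was at 25221 to 30239 CPM in WT and 19411 to 30953 in *Tet2/3* DKO. The median log2 difference of the 15 tested members was -0.13, and that of all tested sequences -0.01.

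**Figure D1:**
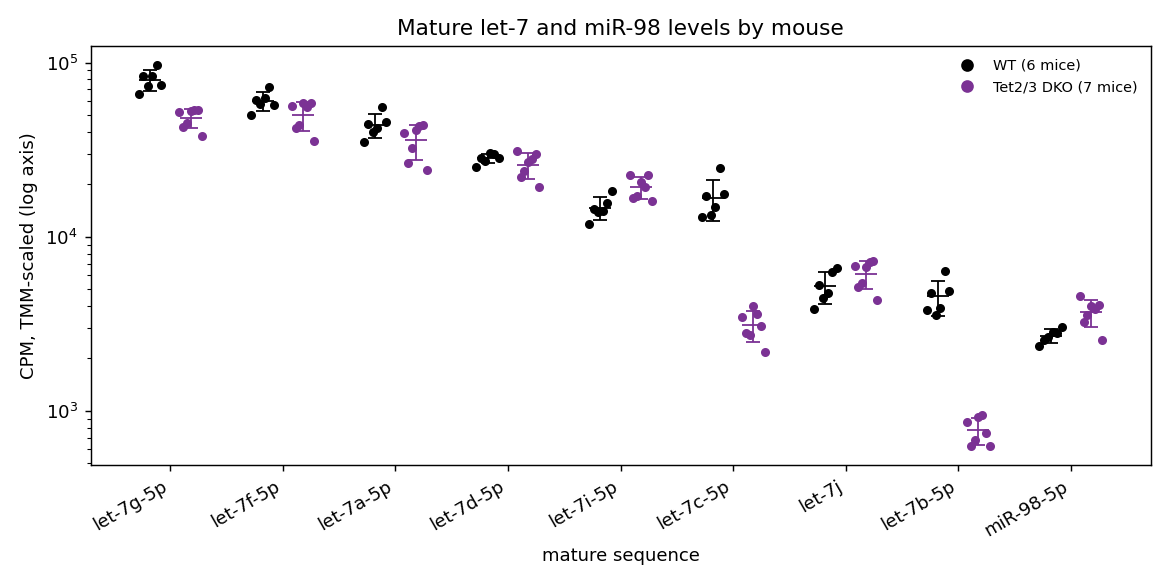
Mature levels of the 9 most abundant members in CPM on TMM-scaled libraries (log axis), with a point per mouse (black, 6 WT; purple, 7 *Tet2/3* DKO) and bars for the mean and SD. let-7g-5p, let-7c-5p and let-7b-5p separate the genotypes completely, and the other 6 overlap.

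The other 4 members were too rare for the test. Summed over a genotype, let-7g-3p had 6 counts in WT and 17 in *Tet2/3* DKO, let-7f-2-3p had 2 and 3, miR-98-3p 34 and 76, and let-7k 6 and 65. let-7k, which has the seed of the family but is shorter than the others, was at 0 to 4 counts in a single WT mouse and 3 to 21 in a single *Tet2/3* DKO mouse. These counts do not allow a comparison of levels.

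The related loci served as a comparison, that is the let-7 hairpins with a mir-99/100 or mir-125 neighbour (let-7a-2, let-7c-1, let-7e) and those neighbours (mir-99a, mir-99b, mir-100, mir-125a, mir-125b-1, mir-125b-2). Of these 9, 6 were tested, and 2 were lower (let-7c-1, -2.52, and mir-99a, -3.09), 3 higher (let-7e, 1.38, mir-99b, 1.51, and mir-125a, 1.24) and let-7a-2 (-0.15) not past the threshold. let-7a-2 and let-7c-1 cannot be read apart from members. The count of let-7a-2 was 1.03 to 1.05 times that of let-7a-1 in each of the 13 libraries, and the count of let-7c-1 was 0.859 to 1.07 times that of let-7c-2, although these hairpins are on different chromosomes. How reads that match several hairpins were counted is not given in the sources used here, so the loci of let-7a and let-7c are uncertain.

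The family composition, that is each member's share of the family's counts in a library, does not depend on the scaling between libraries. It was taken as a description, with rows of identical counts taken once, and the shares of one library sum to 100% and so move together. Together the members made up 23.4% ± 2.09 of mature counts in the 6 WT mice and 20.7% ± 2.07 (mean and SD) in the 7 *Tet2/3* DKO mice, with overlap, and 10.7% ± 1.15 and 7.88% ± 0.798 of precursor counts, without overlap. In WT the mature family was led by let-7g-5p (31.0% ± 1.14), let-7f-5p (23.5% ± 0.718), let-7a-5p (17.0% ± 0.622) and let-7d-5p (11.1% ± 0.835), whose ranges did not overlap. These 4 held 80.0% to 84.0% of the family in WT mice and 81.5% to 83.5% in *Tet2/3* DKO mice, with overlap.

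Within it the order changed. let-7g-5p fell to 25.1% ± 1.13 (SD, n = 7), beside let-7f-5p at 25.8% ± 0.773, and their ranges in *Tet2/3* DKO overlapped. let-7c-5p went from 6.47% ± 0.881, with a range that overlapped that of let-7i-5p (5.74% ± 0.720), to 1.61% ± 0.158, and let-7b-5p from 1.76% ± 0.216 to 0.402% ± 0.0384. let-7i-5p took 10.03% ± 0.726 in *Tet2/3* DKO, let-7d-5p 13.4% ± 0.559, let-7j 3.16% ± 0.104 against 2.01% ± 0.284 in WT, and miR-98-5p 1.90% ± 0.130 against 1.06% ± 0.108. Thus miR-98-5p, the least abundant of the 9 main members in WT, was above let-7c-5p by mean share in *Tet2/3* DKO, with overlapping ranges, and above let-7b-5p in every mouse. Of the 18 mature entries 4 were lower and 5 higher without overlap, and let-7a-5p overlapped (17.0% ± 0.622 and 18.3% ± 1.35). By CPM 5 of the 15 tested members (33.3%) did not overlap, beside 27.2% of all 401 tested sequences.

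Among hairpins the shift was wider than among guides for let-7b, let-7c-2, let-7a-1 and let-7d, and narrower for let-7g, let-7i and mir-98. In percentage points it was -12.3 for let-7b (-1.35 for let-7b-5p), -7.39 for let-7c-2 (-4.85 for let-7c-5p) and -2.23 for let-7g (-5.92 for let-7g-5p). The hairpin and mature families do not hold the same entries, and the cause was not tested. let-7b went from 16.9% ± 1.62 (SD, n = 6) of member hairpin counts to 4.61% ± 0.4925 (SD, n = 7) and let-7c-2 from 10.3% ± 1.23 to 2.91% ± 0.382. let-7a-1 went from 13.5% ± 0.537 to 20.99% ± 1.09, let-7d from 13.4% ± 1.21 to 20.3% ± 0.949, let-7f-2 from 9.21% ± 0.348 to 12.98% ± 0.547 and mir-98 from 0.419% ± 0.0685 to 0.991% ± 0.0569. let-7g was the only hairpin whose share overlapped between genotypes, at 28.6% ± 1.64 and 26.4% ± 1.02, although its CPM did not. In all, 2 shares were lower and 6 higher without overlap, but shares of one library move together, so these are not separate results. By CPM 3 of the 9 hairpins (33.3%) did not overlap, beside 32% of all 350 tested hairpins. With let-7a-2, let-7c-1 and let-7e added to the family, the difference was 4.77 percentage points for let-7a-1 (7.46 without them), 4.39 for let-7d (6.92) and -9.98 for let-7b (-12.3).

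**Figure D2:**
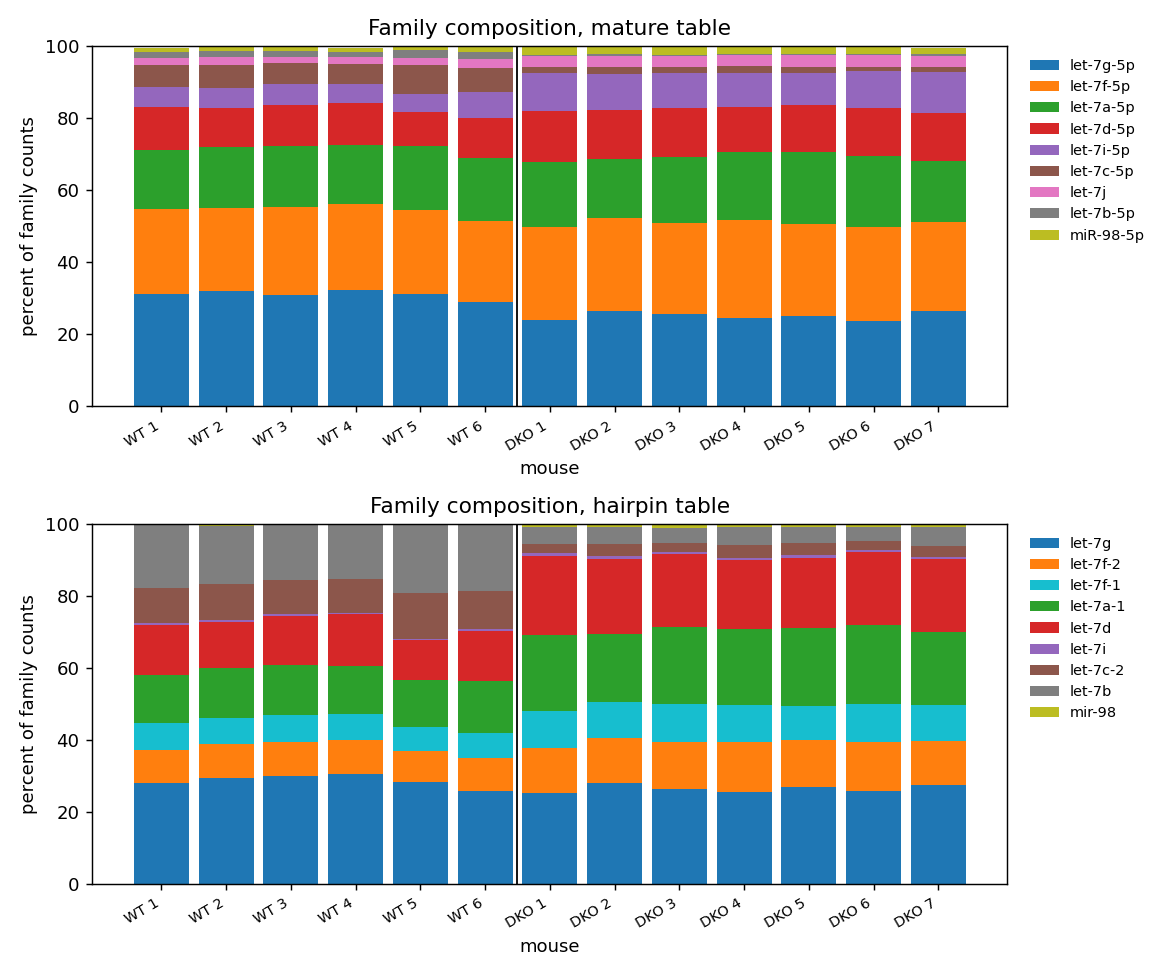
Share of each member in the family's counts (percent, stacked bars, a bar per mouse) in the mature table above, with its 9 most abundant entries, and the hairpin table below. let-7b (grey) and let-7c (brown) are narrower in every *Tet2/3* DKO mouse than in every WT mouse in both tables, and let-7g (blue) is narrower in every *Tet2/3* DKO mouse in the mature table only.

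Reads of a hairpin and of its guide were not in a fixed proportion over the family. The let-7b hairpin had more counts than let-7b-5p, a median of 191% in WT and 191% in *Tet2/3* DKO (1.68 to 2.09 times over the 13 libraries). let-7c-2, its neighbour, had 31.5% and 29.1% of the counts of let-7c-5p, let-7d 23.6% and 24.1% of those of let-7d-5p, let-7g 18.1% and 16.8%, and let-7i only 1.64% and 1.13%. These ratios overlapped between genotypes for all 9 hairpins. let-7b was thus the only one of the 9 hairpins with more counts than its guide. The ratios are not alike in kind, since let-7c-5p is also cut from let-7c-1 and let-7f-1 and let-7f-2 share a guide. For let-7a-1 and let-7a-5p the locus of the reads is uncertain too, as given above. How hairpin and mature reads were assigned is not given, and the cause of the difference was not tested.

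All 9 pairs of arms had more reads from the 5′ arm than from the 3′ arm in both genotypes, and they differed widely in how many more. Not every pair stands for a single locus. Both let-7f-1-3p and let-7f-2-3p were set against the same let-7f-5p counts. The loci of let-7a and let-7c reads are uncertain, as given above. In WT there were 28.0 counts of let-7d-5p for each count of let-7d-3p, 314 for let-7b, 850 for miR-98, 981 for let-7i and 2048 for let-7c with let-7c-2-3p. In *Tet2/3* DKO these values were 39.3 for let-7d, 301 for let-7b, 1302 for miR-98, 1365 for let-7i and 315 for let-7c, so the place of let-7c in the order differed between genotypes. That place depends on which locus its minor reads came from, since the counts of let-7c-2-3p were also those of let-7a-1-3p in every library. The values of let-7f with let-7f-1-3p (4456 in WT and 3207 in *Tet2/3* DKO) and let-7a with let-7a-1-3p (5378 and 3577) were higher. let-7g (141825 and 75872) and let-7f with let-7f-2-3p (323058 and 450090) had the highest, with at most 17 counts of the minor arm in a genotype. In both genotypes let-7d was therefore the pair whose minor arm was best represented, at 676 to 1006 CPM by genotype mean. The 8 entries of the 3′ arm with counts of their own made up 0.365% to 0.470% of the mature family in WT and 0.288% to 0.529% in *Tet2/3* DKO, most of it let-7d-3p (0.395% ± 0.0396 in WT and 0.357% ± 0.0720 in *Tet2/3* DKO).

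The balance of arms was compared between genotypes by limma on the log2 ratio of the minor to the major arm, over all 122 of 439 pairs of arms with enough counts. Of the 9 member pairs 6 were tested, and 1 was lower and 1 higher, against 8.2% lower, 12.3% higher and 20.5% called among all pairs. The share of let-7d-3p in both let-7d arms was 3.21% to 3.66% in WT (median 3.50%) and 2.10% to 3.49% in *Tet2/3* DKO (median 2.41%), so that 6 of 7 *Tet2/3* DKO mice were below every WT mouse. The log2 ratio fell by 0.44 (SE 0.138, limma adjusted p = 0.0246). This call held in 10 of the 13 fits that left out a mouse, and not without WT replicate 4, *Tet2/3* DKO replicate 1 or *Tet2/3* DKO replicate 4 (limma adjusted p = 0.0585, 0.0525 and 0.0564). The level of let-7d-3p itself fell without overlap, from 905 to 1149 CPM in WT (median 983) to 543 to 836 in *Tet2/3* DKO (median 673), a log2 difference of -0.57 (SE 0.116, edgeR adjusted p = 0.000251), while let-7d-5p was at -0.13 (edgeR adjusted p = 0.347).

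The other call was let-7c-2-3p against let-7c-5p, with a minor arm share of 0.0266% to 0.0799% in WT and 0.189% to 0.575% in *Tet2/3* DKO and a log2 difference of 2.67 (SE 0.388, limma adjusted p = 7.26e-06). The counts of let-7c-2-3p, 10 to 26 in a WT mouse and 24 to 61 in a *Tet2/3* DKO mouse, were those of let-7a-1-3p as well. They did not differ in level past the threshold (0.32, edgeR adjusted p = 0.400), while let-7c-5p was lower. The same minor counts against let-7a-5p gave 0.57 (SE 0.394, limma adjusted p = 0.311), so the ratio of let-7c arms depends on which locus these reads came from, and that cannot be told apart.

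Both arms of let-7b fell, and their ratio did not pass the threshold. let-7b-3p had 16 to 41 counts per library in WT and 1 to 18 in *Tet2/3* DKO, and its level fell by 2.46 on the log2 scale (SE 0.388, edgeR adjusted p = 1.85e-05), beside -2.55 for let-7b-5p. Its share of both arms was 0.337% ± 0.118 (SD, n = 6) and 0.313% ± 0.144 (SD, n = 7), a log2 ratio of -0.10 (SE 0.471, limma adjusted p = 0.883), which leaves room for a change of either sign at this depth. let-7i-3p (-0.28, SE 0.356) and let-7f-1-3p (0.58, SE 0.379) did not pass the threshold. No direction was read from the 3 pairs not tested, whose minor arms had few counts. The minor arm was 0.000705% of let-7g counts pooled over WT mice (exact 95% Clopper-Pearson interval 0.000259% to 0.00153%) and 0.00132% (0.000768% to 0.00211%) pooled over *Tet2/3* DKO mice, but 4 of its 6 WT counts came from WT replicate 1, without which the WT value was 0.000256% (0.0000310% to 0.000925%). For miR-98 it was 0.118% (0.0814% to 0.164%) in WT and 0.0768% (0.0605% to 0.0961%) in *Tet2/3* DKO, and for let-7f-2 0.000310% (0.0000375% to 0.00112%) and 0.000222% (0.0000458% to 0.000649%), and for each of the 3 the pooled intervals overlapped. These intervals cover counting error only, as reads without molecular identifiers are not independent molecules.

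**Figure D3:**
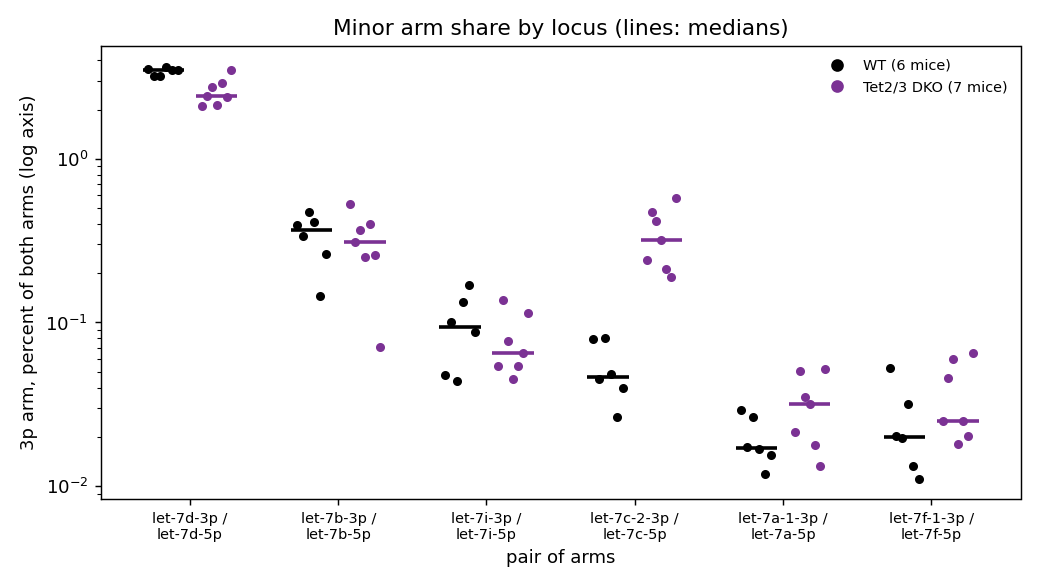
Minor arm as a percent of both arms (log axis) for the 6 tested pairs, a point per mouse (black, WT; purple, *Tet2/3* DKO), with the median as a line. The let-7d share is lower in 6 of 7 *Tet2/3* DKO mice than in any WT mouse, the let-7c share is higher in all 7, and the other 4 pairs overlap.

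Ratios of neighbouring hairpins were compared within each library, which again needs no scaling, by exact two-sided permutation tests over all 1716 arrangements of the mice, with Benjamini-Hochberg adjustment over 4 ratios. let-7b over let-7c-2, which both fell in level, was 1.498 to 1.78 in WT (median 1.63) and 1.43 to 1.86 in *Tet2/3* DKO (median 1.62), with no difference past the threshold (log2 ratio -0.05, exact permutation p = 0.460, adjusted p = 0.460). mir-98 over let-7f-2, both in *Huwe1*, ran from 0.0352 to 0.0556 in WT (median 0.0449) and from 0.0692 to 0.0833 in *Tet2/3* DKO (median 0.0783). The genotypes did not overlap, and the log2 ratio rose by 0.76 (exact permutation p = 0.000583, the smallest this design allows, adjusted p = 0.00233). At the lincRNA locus let-7a-1 over let-7f-1 was 1.80 to 2.02 in WT (median 1.86) and 1.91 to 2.32 in *Tet2/3* DKO (median 2.06), and the log2 ratio rose by 0.14 (exact permutation p = 0.00641, adjusted p = 0.0128), with overlap. let-7d over let-7f-1 was 1.67 to 1.98 and 1.83 to 2.16, a log2 ratio of 0.12 that did not pass after adjustment (exact permutation p = 0.0443, adjusted p = 0.0591). The hairpins let-7f-1 and let-7f-2, on different chromosomes but with 1 guide sequence, kept a ratio of 1.21 to 1.37 in all libraries, and let-7a-1 had that of let-7a-2 as given above, so reads shared between loci may enter these ratios.

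**Figure D4:**
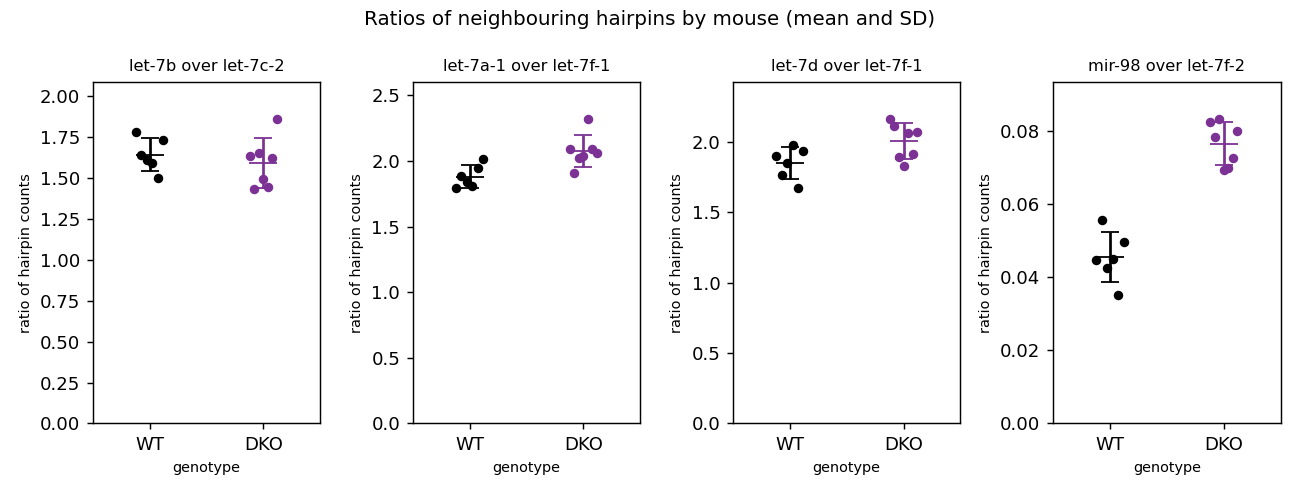
Ratio of hairpin counts (no unit, axis from 0) of neighbouring hairpins in each mouse, with mean and SD (black, 6 WT; purple, 7 *Tet2/3* DKO). The ratio of mir-98 to let-7f-2 separates the genotypes (up to 0.0556 in WT and from 0.0692 in *Tet2/3* DKO), and the other 3 overlap.

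Members also varied together among mice of one genotype. Over the 36 pairs of the 9 abundant mature members, Pearson's r of log2 CPM had a median of 0.742 in WT (0.400 to 0.983, 6 mice) and 0.905 in *Tet2/3* DKO (0.683 to 0.992, 7 mice). Over all 389 tested sequences with counts that were not duplicates, the median was 0.00928 and 0.00409, and over the 69 with at least 1000 CPM 0.0869 and 0.0939. With library size as the only scaling the members' medians were 0.603 (-0.0364 to 0.975) and 0.767 (0.334 to 0.969). These are descriptions with no test, the points share library and scaling, and several members share reads or loci.

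The members of 3 pairs were compared in each genotype by exact permutation, with Benjamini-Hochberg adjustment over 6 values of r and, apart, over 6 of rho. let-7b-5p and let-7c-5p rose and fell together among WT mice (r = 0.983, exact permutation p = 0.00417, adjusted p = 0.00625; rho = 0.943, exact permutation p = 0.0167, adjusted p = 0.0476) and among *Tet2/3* DKO mice (r = 0.913, exact permutation p = 0.00417, adjusted p = 0.00625; rho = 0.929, exact permutation p = 0.00675, adjusted p = 0.0405). Without the 2 mice farthest from the median of let-7b-5p, r was 0.955 and 0.855. let-7a-5p and let-7f-5p gave r = 0.970 in *Tet2/3* DKO (exact permutation p = 0.00198, adjusted p = 0.00625; rho = 0.821, exact permutation p = 0.0341, adjusted p = 0.0512, which does not pass the threshold), and r = 0.921 without 2 mice. In WT they gave r = 0.925 (exact permutation p = 0.0333, adjusted p = 0.0400), but rho = 0.600 (exact permutation p = 0.242, adjusted p = 0.290) and r = -0.0402 without 2 mice. The WT relation was thus not seen without those mice. With 4 mice left, over a narrower range of levels, this r cannot show what the relation rests on. miR-98-5p and let-7f-5p gave r = 0.930 in *Tet2/3* DKO (exact permutation p = 0.00357, adjusted p = 0.00625; rho = 0.857, exact permutation p = 0.0238, adjusted p = 0.0476) and 0.961 without 2 mice. In WT they gave r = 0.505 (exact permutation p = 0.288, adjusted p = 0.288; rho = 0.314, exact permutation p = 0.564, adjusted p = 0.564) and 0.558 without 2 mice, and the difference between genotypes was not tested.

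**Figure D5:**
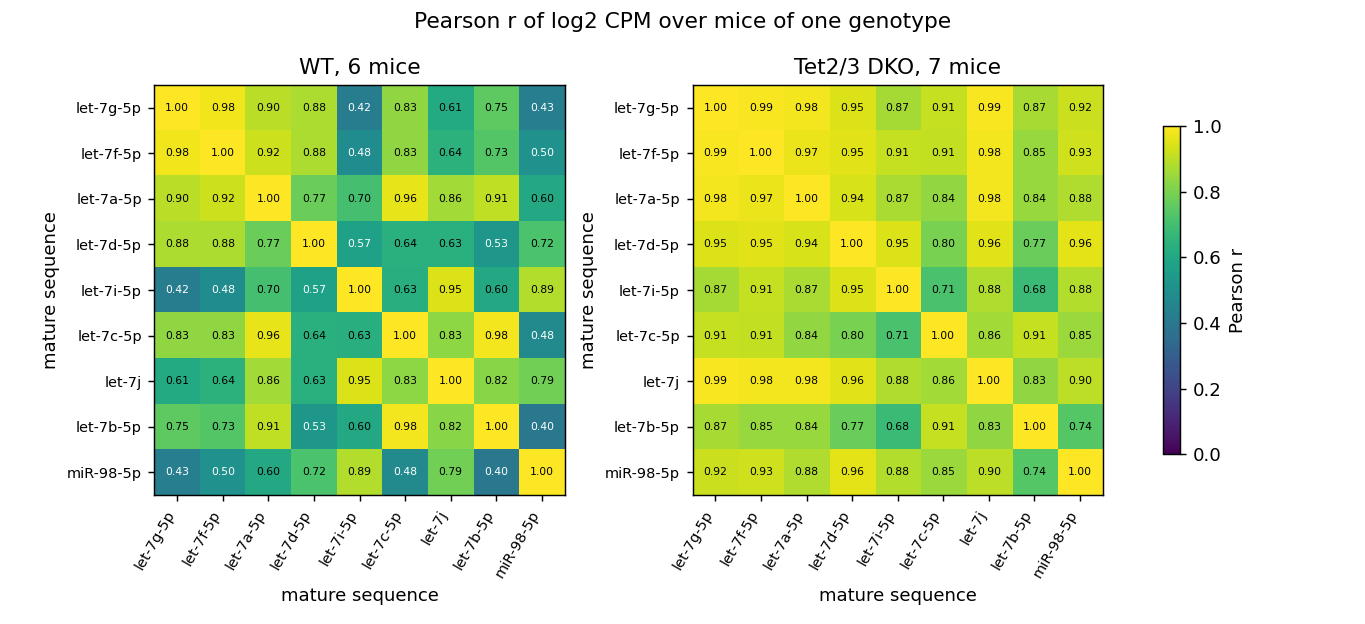
Pearson's r (color, printed in each cell) of log2 CPM between mature members over the 6 WT mice (left) and the 7 *Tet2/3* DKO mice (right). Every pair is above 0, from 0.400 to 0.983 in WT and from 0.683 to 0.992 in *Tet2/3* DKO.

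Read the other way, the profile over the 9 abundant members was nearly the same in any pair of mice of one genotype. Across these members, which are not independent replicates, r of log2 CPM averaged 0.995 over the 15 pairs of WT mice (0.986 at the lowest) and 0.998 over the 21 pairs of *Tet2/3* DKO mice (0.997 at the lowest), against 0.842 (0.771 to 0.886) over the 42 pairs of 1 mouse of each genotype. Over all 14 tested members with counts of their own, minor arms included, the averages were 0.996, 0.996 and 0.973 (0.957 to 0.985), a narrower gap. The points of each such r share the wide range of levels between members. The mice of each genotype were also ranked on the 10 entries with a WT mean of at least 1000 CPM. In WT, replicate 5 had the highest level of 5 entries and replicate 1 the lowest of 8. In *Tet2/3* DKO, replicate 7, the shallowest library of its genotype, had the lowest of 9.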

How the data were processed

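Small RNA was measured in sorted thymic iNKT cells of 6 WT and 7 *Tet2/3* DKO mice, each mouse being 1 replicate. The authors processed single-end reads with nf-core/smrnaseq and its default parameters and deposited raw counts per hairpin and per mature sequence, without normalization. The aligner, the miRNA database release and the treatment of reads with several matches are not given in the sources used here. Each column was assigned to a mouse by the genotype and number in its name, and 0 were left unused. No 2 libraries of one genotype agreed within sampling noise (chi-square per degree of freedom at least 15.0).

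Each whole table was fitted with edgeR 4.0.16 (filterByExpr with a minimum count of 10 and total of 15, TMM, robust quasi-likelihood, genotype only) and adjusted by Benjamini-Hochberg, with a threshold of 0.05. Levels are CPM of the TMM-scaled library, and correlations used log2 CPM with a prior count of 2. Arm ratios used limma 3.58.1 with a pseudocount of 0.5 where the lesser arm averaged at least 10 counts. Ratios of hairpins and correlations used exact permutation tests. The code was tested on simulated data with known changes. R 4.3.3, DESeq2 1.42.0, Python 3.11.15, scipy 1.17.1 and matplotlib 3.10.9 were used.

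The alternatives tried were scaling by RLE, by the upper quartile or by library size only, no filter on low counts or at least 10 counts in every library, entries with identical counts taken once, DESeq2, replicate number as a block, other pseudocounts and minimum counts for arms, a family with let-7a-2, let-7c-1 and let-7e, and leaving out each mouse. The members, the lists and the rule for named miRNAs (all members, the related loci, and for let-7b-5p and let-7g-5p the 3 miRNAs outside the family most alike over mice) were chosen with earlier results of these data known.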

Additional observations from a re-analysis of the deposited data

Results flagged for a closer look

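Among shares of the family, 2 were set apart from the rest of their genotype by Dixon's test at the 95% level. The let-7c-2 hairpin took 12.7% of the member hairpin counts in WT replicate 5, and the next WT mouse was at 10.54%. Mature let-7j took 2.57% of the family in WT replicate 6, and the next WT mouse was at 2.02%. In *Tet2/3* DKO mice let-7c-2 took at most 3.41% and let-7j at least 3.04%. The test was made on 116 groups of values, in which chance gives about 5.8 such values, more than the 2 found.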

How the results depend on the processing

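Scaling and filters moved the weaker differences. Lower hairpins numbered 56 with library size only, 156 with no filter and 164 with DESeq2 (95 in the report), and lower member hairpins 3, 8 with upper-quartile scaling and 3 with no filter (5). Upper-quartile scaling gave 0 higher member hairpins (1), and 8 lower and 1 higher mature members (5 and 2). Log2 differences changed sign with library size only for let-7a-1 (0.19), let-7d (0.16), let-7f-1 (0.051), let-7f-2 (0.057), let-7i (0.16), let-7d-5p (0.11) and let-7i-3p (0.27), with no filter for let-7a-1 (0.034), let-7d (0.0086) and let-7i-3p (0.062), and for let-7i-3p with identical counts taken once (0.00346) and with DESeq2 (0.00408). let-7b, let-7c-2, let-7g, let-7b-5p, let-7c-5p and let-7g-5p kept direction and call under every alternative run. The causes were not tested.

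Leaving out 1 mouse gave 3 to 5 lower member hairpins (3 without WT replicate 4, 5 or 6), 1 to 2 higher mature members (1 without WT replicate 1), 14 to 27 called arm ratios (14 without *Tet2/3* DKO replicate 1, 25 with all mice) and 1 to 2 among members. The range was -0.26 to 0.17 for let-7i-3p, -0.32 to 0.15 for the arm ratio of let-7b and 0.0876 to 0.138 for let-7d over let-7f-1, which passed the threshold without WT replicate 4 or *Tet2/3* DKO replicate 3 or 4. In the whole mature table these fits called 97 to 109 sequences higher, fewer than the 113 with all mice, and 109 to 125 lower (110 with all).

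Replicate numbers did not clearly pair the mice (r of same-numbered mice -0.0504 to 0.342 in the precursor table, over 0.1 in 2 of 6 pairs, and 2 of 6 mice correlating best with their own number; 0.0116 to 0.335, 3 of 6 and 2 of 6 in the mature table). The mice that correlated best with their own number were replicates 5 and 6 in both tables, and a pairing of these was not tested. With replicate number as a block, in which *Tet2/3* DKO replicate 7 has no partner, 219 hairpins and 227 mature sequences were called (209 and 223 without), let-7j passed the threshold (0.32), and the let-7b arm ratio was 0.15. The ratios let-7a-1 over let-7f-1 (0.14) and mir-98 over let-7f-2 (0.75) reached an exact permutation adjusted p = 0.0625 on the 6 pairs, where p cannot go below 0.03125. Shares of hairpins kept their direction when let-7a-2, let-7c-1 and let-7e were added to the family, and those of mature sequences when let-7e was added. Cluster ratios from mature arms were not run, since no pair of neighbours has guides that each belong to 1 locus, nor WT correlations without 1 mouse, which leave 5. Depth limits the minor arms of let-7g, let-7f-2 and miR-98.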

Other observations

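Some mature miRNAs outside the family varied with members from mouse to mouse. Among 373 mature miRNAs compared over the 13 mice, after the mean of each genotype was taken off, the ones most like let-7b-5p were miR-342-5p (r = 0.857), miR-378a-5p (r = 0.841) and miR-342-3p (r = 0.783), and the ones most like let-7g-5p were miR-107-3p (r = 0.857), miR-3084-5p (r = 0.848) and miR-342-5p (r = 0.799). These values were picked as the highest of many, share library and scaling, and carry no test. By edgeR with Benjamini-Hochberg adjustment, the 3 most like let-7b-5p were, as it was, lower in *Tet2/3* DKO: miR-342-5p (-1.05, SE 0.150, adjusted p = 5.81e-06), miR-378a-5p (-0.54, SE 0.197, adjusted p = 0.0236) and miR-342-3p (-0.68, SE 0.161, adjusted p = 0.00148). Of the 3 most like let-7g-5p, which was lower, miR-342-5p was lower, miR-3084-5p did not pass the threshold (-0.12, SE 0.300, edgeR adjusted p = 0.757) and miR-107-3p was higher (0.29, SE 0.115, edgeR adjusted p = 0.0365).

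Mature let-7j, which begins as let-7i-5p does except for G8U, had 0.272 to 0.398 times the counts of let-7i-5p in each of the 13 libraries, with medians of 0.349 in WT and 0.315 in *Tet2/3* DKO and with overlap. Whether reads of one were counted as the other was not tested.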
